A study of Canis lupus familiaris with 222 samples.

Results

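Simple carcinomas of the canine mammary gland that the study placed in expression cluster NMF2 were compared with those it placed in cluster NMF1. Members were the tumors that the study's clinical table lists as simple carcinoma and assigns to either cluster. There were 56 of them, 17 in NMF2 and 39 in NMF1, among 63 simple carcinomas, 158 tumor libraries and 222 libraries in all. Of the other 7 simple carcinomas, 4 belonged to NMF3 and 3 to NMF4.

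The series holds RNA-seq of canine mammary tumors (CMTs) and of adjacent normal mammary tissue, taken at surgery from dogs with spontaneous tumors. All were female, of several breeds, and no experimental treatment is given. Tissue went fresh into RNAlater, and poly(A) RNA was sequenced. NMF2 members came from 9 neutered and 8 intact dogs with a mean age of 12.3 years ± 3.47 (SD, n = 16 with an age), and NMF1 members from 17 neutered and 20 intact dogs with a mean age of 12.4 years ± 2.82 (SD, n = 36). The NMF2 members were 12 tubulopapillary and 5 solid carcinomas, and the NMF1 members 26 tubulopapillary, 11 solid and 2 of other types. Each tumor came from a different dog. Adjacent normal tissue was sequenced from 6 of the NMF2 dogs and 12 of the NMF1 dogs. In the sample labels, 4 members carry the diagnosis simple adenoma, 1 in NMF2 and 3 in NMF1.

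A simple carcinoma of the dog consists of 1 kind of neoplastic cell, as a rule luminal epithelium, and lacks the myoepithelial component of complex and mixed tumors. Tubulopapillary carcinomas keep tubules and papillae, whereas solid carcinomas grow as sheets without lumina. Non-negative matrix factorization (NMF) writes an expression matrix as a sum of a few gene programs, and each tumor can then be assigned to the program it loads on most. The study ran it on these same libraries, tumors and normal tissues together, so the differences in expression between NMF2 and NMF1 tumors that follow describe how the clusters were drawn and are not a test of them. Adjacent normal tissue of the same dogs, clinical features, survival and sequencing yield did not assign a tumor to its cluster, and only these are read as tests. Adjacent normal tissue did enter the factorization.

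Expression values were FPKM (fragments per kilobase of transcript, scaled to the mapped fragments of the library), which the authors deposited for 24580 Ensembl gene identifiers. None of them could be paired with a gene name, so the epithelial and other cell type markers, the pathway lists and the "simple carcinoma" diagnosis itself could not be examined by gene. Genes therefore appear below by identifier and by count. In bulk tissue, fewer cells of a type and less RNA per cell cannot be told apart.

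NMF2 libraries concentrated their expression in fewer genes. The FPKM of the median gene, over the 14372 genes tested, had a lowest value of 2.00, a median of 5.67 and a highest value of 7.10 in the 17 NMF2 tumors, against 6.39, 7.31 and 9.12 in the 39 NMF1 tumors. The clusters overlapped: 12 NMF2 libraries lay below every NMF1 library, 5 lay within the NMF1 range, and 27 NMF1 libraries lay above every NMF2 library. The 100 highest genes of a library held between 50.6% and 76.9% of its FPKM in NMF2, with a median of 56.9%, and between 41.7% and 57.02% in NMF1, with a median of 49.4%. Genes at 0.5 FPKM or more numbered between 10704 and 13673 in NMF2 (median 13240) and between 12524 and 14087 in NMF1 (median 13514).

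**Figure D1:**
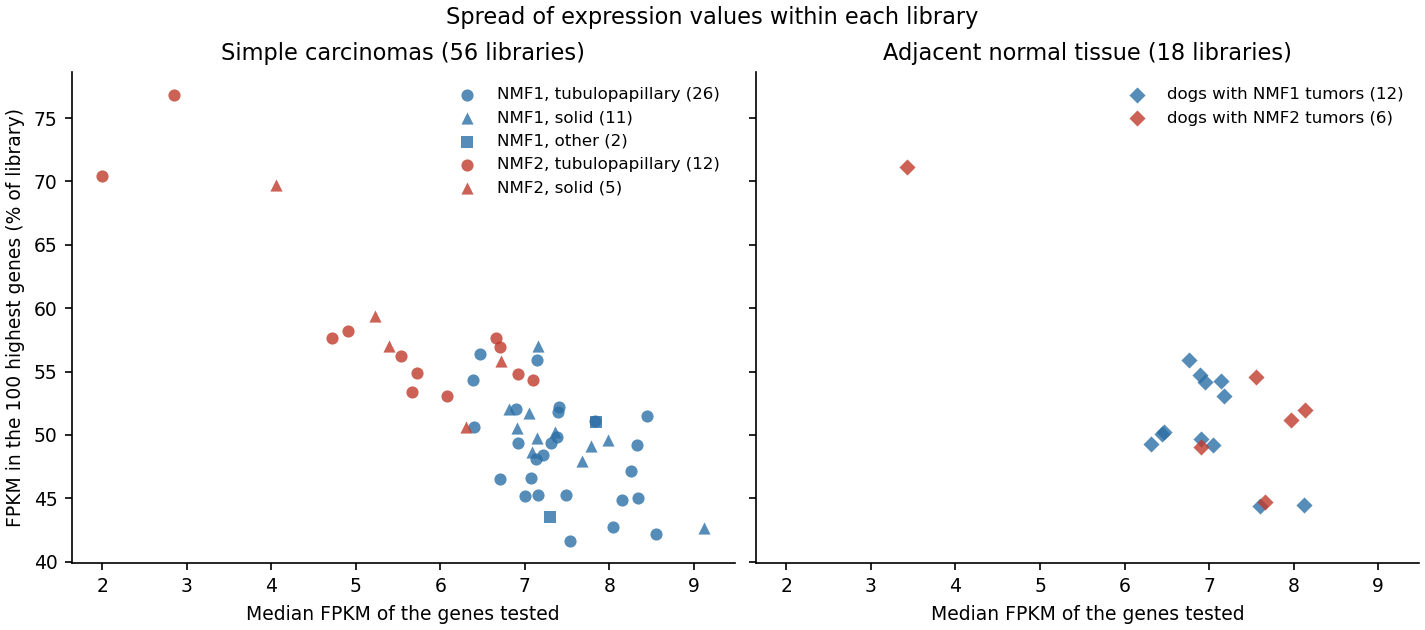
Each point is 1 library, placed by the median FPKM of the genes tested (x axis) and the percentage of its FPKM in its 100 highest genes (y axis), for simple carcinomas (left, circles tubulopapillary, triangles solid, squares other) and adjacent normal tissue (right). NMF2 tumors extend to low medians and high shares, 12 of 17 of them left of every NMF1 tumor, while normal tissues of the dogs overlap except for 1 library at 3.43.

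Sequencing yield did not differ significantly. NMF2 libraries had 58415043 to 147634076 mapped reads (mean 74521484 ± 20240514, SD, n = 17) and NMF1 libraries 56314335 to 104486373 (mean 71561362 ± 11040697, SD, n = 39), by the study's sequencing table (two-sided permutation test, p = 0.490, adjusted p = 0.798). The mapping rate was 89.6% ± 6.10 in NMF2 and 91.2% ± 1.45 in NMF1 (permutation p = 0.188, adjusted p = 0.752), and p was 0.614 without the tumor CMT-774. That tumor mapped at 66.6% and had a median FPKM of 2.85. It and CMT-686, at 2.00, had the lowest medians of all members. These 2 libraries also had the lowest mapping rates of all members, that of CMT-686 being 86.1%. Both were tubulopapillary carcinomas of grade 1 removed in 2018. The next lowest median, 4.06, was that of CMT-644, a solid carcinoma of grade 3 removed in 2017. The 100 highest genes held 69.7% of the FPKM in CMT-644 and 70.4% in CMT-686. The values behind FPKM do not give the number of reads per gene, so precision at low levels is unknown.

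The median FPKM was also compared in normal tissue. It was 6.94 ± 1.77 (SD, n = 6) in the dogs with NMF2 tumors and 6.99 ± 0.506 (SD, n = 12) in the dogs with NMF1 tumors (two-sided exact permutation test, p = 0.798, adjusted p = 0.798 over the 8 library comparisons). The share of the 100 highest genes was 53.8% ± 9.14 against 50.8% ± 3.78 (exact permutation p = 0.404, adjusted p = 0.798). A single normal library, CMT-105, had a median of 3.43. Without it the NMF2 dogs had the higher mean, 7.65 against 6.99 (exact permutation p = 0.0326, adjusted p = 0.261), the opposite direction to the tumors.

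A gene was called when limma's Benjamini-Hochberg adjusted p was under 0.05 and the clusters differed by at least 1 on the log2(FPKM + 1) scale, which understates changes of weakly expressed genes. Of 14372 genes that reached 0.5 FPKM on average, 1299 were called on the deposited values. NMF2 was higher for 66 of them (0.459% of the genes tested) and lower for 1233 (8.58%). All genes together were shifted: the median log2 difference, NMF2 minus NMF1, was -0.26, and 71.2% of genes were lower in NMF2.

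After quantile normalization, which gives every library the same distribution of values, the median log2 difference was 0.02 and 534 genes were called. NMF2 was higher for 172 (1.2%) and lower for 362 (2.52%). Median-of-ratios scaling gave 894 calls. The genes higher in NMF2 made up 5.08% of the calls on deposited values, 32.2% after quantile normalization and 38.5% after median-of-ratios scaling, so the split into higher and lower genes depended on the scaling. A gene called on deposited values and again after quantile normalization always kept its direction. Of 405 such genes, 51 were higher in NMF2, all others were lower, and 0 had opposite directions. They are 31.2% of the calls on deposited values and 75.8% of those after quantile normalization. Both fits used the same libraries, and each call needed a log2 difference of at least 1, so opposite directions were unlikely from the start.

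The shift on deposited values changed with expression level. Among the 2731 genes with a mean of 4 to 8 FPKM the median log2 difference was -0.41, and 21.2% of them were higher in NMF2. Among the 281 genes at 250 FPKM or more the median was 0.44, and 71.9% were higher in NMF2. After quantile normalization the corresponding medians were -0.01 and 0.05. On deposited values, abundant genes were thus mostly higher and genes of intermediate level mostly lower in NMF2.

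**Figure D2:**
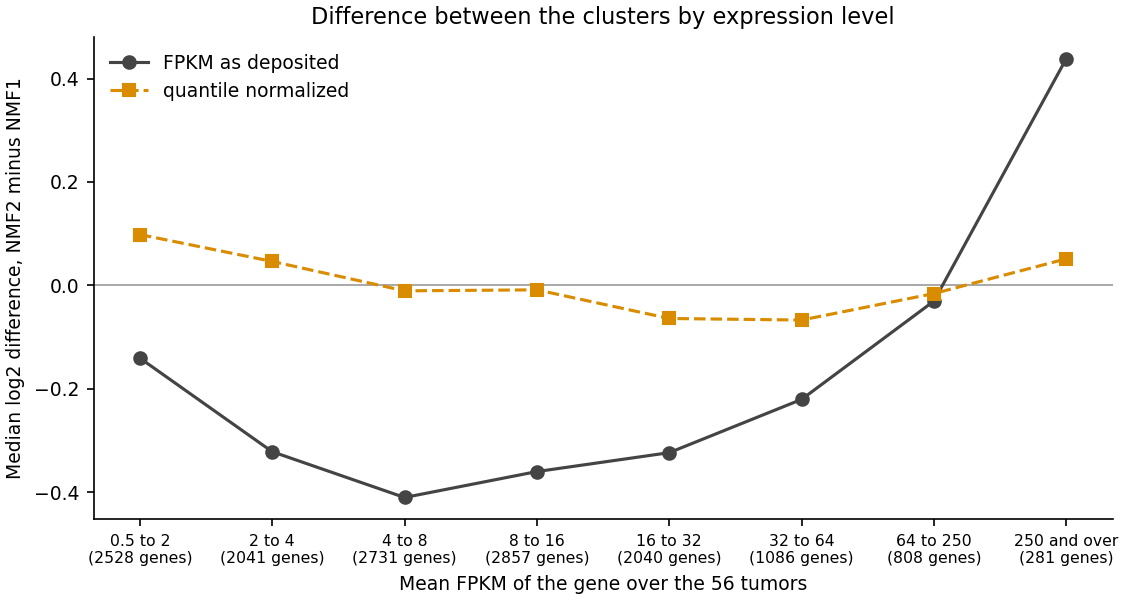
Median log2 difference, NMF2 minus NMF1, of genes grouped by mean FPKM over the 56 tumors (x axis, number of genes in brackets), for FPKM as deposited (circles) and after quantile normalization (squares). The deposited values fall to -0.41 at 4 to 8 FPKM and reach 0.44 at 250 FPKM and over, whereas quantile normalized values stay between -0.07 and 0.10.

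No gene separated the clusters fully. Over all 14372 genes tested, 0 had all NMF2 tumors above all NMF1 tumors and 0 the reverse. Of the genes lower on both scales, 93 had all 17 NMF2 tumors below the NMF1 median, and a typical gene of that list had 16 of 17 below it. The genes had a median log2 difference of -1.46, with a median of 21.6 FPKM in NMF1 and 7.19 FPKM in NMF2. Of the 51 genes higher on both scales, 11 had all 17 NMF2 tumors above the NMF1 median, a typical gene had 15, and the median log2 difference was 1.23. Both lists were chosen for their difference in these same tumors, which sets these counts in part. The same counts over all genes tested are not given, but 71.2% of all genes were lower in NMF2 on deposited values.

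The genes chosen as lower in NMF2 on both scales were also counted tumor by tumor, a count that the choice of genes sets in part. An NMF2 tumor had at least 70.1% of these genes below their NMF1 median, with a median of 96.6% and a highest value of 100%. NMF1 tumors ranged from 7.91% to 94.6% with a median of 42.7%. Quantile normalization left these ranges at 71.8% to 100% for NMF2 and 9.60% to 92.9% for NMF1. Thus some NMF1 tumors had as many of these genes at low level as NMF2 tumors did. The 51 higher genes divided the clusters less: NMF2 tumors had 58.8% to 96.1% of them above the NMF1 median, and NMF1 tumors 15.7% to 78.4%.

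**Figure D3:**
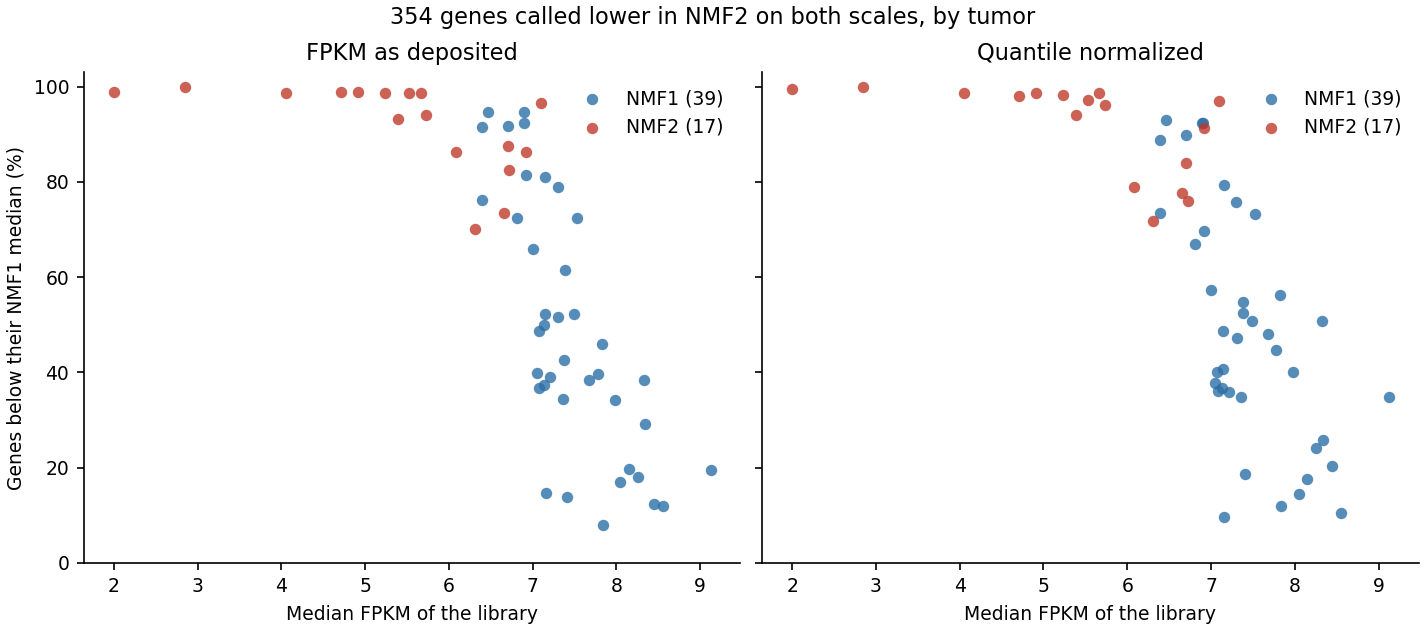
Percentage of the genes called lower in NMF2 on both scales that lie below their NMF1 median in each tumor (y axis), against the median FPKM of its library (x axis), on deposited (left) and quantile normalized values (right). NMF2 tumors lie between 70.1% and 100% on deposited values, and the 5 NMF1 tumors above 90% have library medians of 6.39 to 6.90.

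Whole profiles were about as alike within NMF2 as across clusters. Across the genes tested, the median Pearson correlation between 2 tumors was 0.850 within NMF2, 0.878 within NMF1 and 0.847 between them, over all pairs on deposited values, and 0.846, 0.881 and 0.849 after quantile normalization. These correlations are across genes, which are not independent replicates, and are given without a test.

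The library median was closely tied to the clusters. With the log2 of each library's median FPKM as a covariate, 18 genes were called on deposited values (0.125%), 13 higher and 5 lower in NMF2, and 5 of the 18 had been called in the same direction without it. After quantile normalization 6 genes were called with this covariate, and 5 of them had been called in the same direction without it. Cluster and library median cannot be told apart by this fit, since 12 NMF2 libraries had a median that no NMF1 library reached. Without CMT-686 and CMT-774, 576 genes were called on deposited values (4.01%), 37 higher and 539 lower, and 236 after quantile normalization (1.64%). Of these, 99.1% and 98.3% were among the calls made with all members.

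Surgery year was unevenly spread over the clusters, though not significantly. In 2017, 8 of 17 NMF2 and 29 of 39 NMF1 tumors were removed (two-sided Fisher's exact test, p = 0.0671, adjusted p = 0.604). Within 2017, 603 genes were called on deposited values (4.21%), 44 higher and 559 lower, and 1.71% of the genes tested after quantile normalization. In 2016, with 5 NMF2 and 8 NMF1 tumors, 1 gene was called on deposited values and 10 after quantile normalization. Of 14207 genes tested, 2948 and 2544 had an unadjusted limma p under 0.05. In 2018, with 4 and 2 tumors, limma called 0 genes on either scale. Of 13959 genes tested, 1757 and 1453 were under that unadjusted p. With surgery year as covariate over all members, 709 genes were called on deposited values and 274 after quantile normalization (1.91%). The part of surgery year in the calls was not tested further.

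The 2 histological types were also fitted apart, with no tumor in common. After quantile normalization, 778 genes were called between 12 NMF2 and 26 NMF1 tubulopapillary carcinomas (5.46%) and 341 between 5 NMF2 and 11 NMF1 solid carcinomas (2.38%). A total of 98 genes were called in the same direction in both types, which is 12.6% of the tubulopapillary and 28.7% of the solid calls, and 0 in opposite directions. Most of the shared genes, 71 of 98, were lower in NMF2. The same factorization drew the clusters in both types, so the shared calls are a description. An interaction of cluster with type was called for 2 genes on deposited values, by the same rule and likewise as a description.

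The clusters also contain tumors of other histology, 18 in NMF2 and 53 in NMF1, among them complex and mixed tumors. On deposited values 45 genes were higher (0.313%) and 654 lower (4.55%) in the NMF2 tumors of this group, and after quantile normalization 279 were called, 86 of them higher (0.598%) and the rest lower (1.34%). Of the calls in simple carcinomas, 481 on deposited values were repeated in the same direction, 37.0% of the simple carcinoma calls and 68.8% of the calls in other tumors. After quantile normalization 146 were repeated, 27.3% and 52.3%. No gene was called in opposite directions on either scale. The same factorization drew the clusters in these tumors and in the simple carcinomas, so the repeated calls are a description and not a test. The median FPKM of libraries was again lower in NMF2 (3.05 to 6.74, median 5.94) than in NMF1 (5.92 to 8.33, median 7.60). With the library median as covariate, 14 of 14372 genes were called in these tumors on deposited values and 13 after quantile normalization.

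By the rule, 2 identifiers were named in each direction, from genes called on both scales with a mean of at least 5 FPKM in the higher cluster. The identifier with the highest log2 difference was ENSCAFG00000021718. In NMF2 tumors it had a lowest value of 8.90 FPKM, a median of 91.4 and a highest value of 1191. In NMF1 tumors it ranged from 0 to 465.2 FPKM with a median of 7.01. All 17 NMF2 tumors lay above the NMF1 median, and 17 of 39 NMF1 tumors lay above the lowest NMF2 tumor, so the clusters overlapped. Its log2 difference was 3.05 (SE 0.605) on deposited values and 3.14 (SE 0.619) after quantile normalization. In solid carcinomas the log2 difference was 4.28 (SE 0.990) and in tubulopapillary carcinomas 2.63 (SE 0.713), and the interaction term, 1.64 (SE 1.31), was not called.

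In tumors of other histology ENSCAFG00000021718 had a median of 58.7 FPKM in NMF2 and 6.84 FPKM in NMF1, and all 18 NMF2 tumors lay above the NMF1 simple carcinoma median. The NMF3 and NMF4 simple carcinomas had medians of 11.5 FPKM (0.745 to 3346, n = 4) and 12.2 FPKM (11.4 to 59.1, n = 3). The highest NMF3 value lay above every NMF2 simple carcinoma, and all 3 NMF4 values lay above the NMF1 median. Normal tissue had medians of 21.8 FPKM in the 6 NMF2 dogs and 8.03 FPKM in the 12 NMF1 dogs, a log2 difference of 0.98 (SE 0.557) that was not significant (limma adjusted p = 1.00). The tumor exceeded the dog's own normal tissue in 6 of 6 NMF2 dogs, with a median log2 difference of 3.41, and in 7 of 12 NMF1 dogs, with a median of 0.50. Between clusters this tumor minus normal value differed by 2.53 (SE 0.957), which was not called (limma adjusted p = 0.190). With the library median as covariate the log2 difference of ENSCAFG00000021718 in tumors was 1.99 (SE 0.770) and it was no longer called.

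The other higher identifier was ENSCAFG00000028753, whose values another identifier repeats exactly. It had 319 to 177260 FPKM in NMF2, with a median of 1570, and 0 to 5811 FPKM in NMF1, with a median of 554. It lay above the NMF1 median in 14 of 17 NMF2 tumors. The log2 difference was 2.77 (SE 0.640), and 2.27 (SE 0.612) after quantile normalization. Normal tissue carried more of it than most tumors, with a median of 8671 FPKM in NMF2 dogs and 3089 FPKM in NMF1 dogs, and the tumor was lower than the own normal tissue in 4 of 6 and 10 of 12 dogs. Without CMT-686 and CMT-774 its log2 difference was 2.12 (SE 0.610), and with the library median as covariate it was 1.28 (SE 0.789) and not called.

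The rule put ENSCAFG00000022728 and ENSCAFG00000022729 first among the lower genes, and libraries listed at 0 set the size of both differences. Among the members, both identifiers were listed at 0 in the same 12 libraries, 8 of 17 in NMF2 and 4 of 39 in NMF1, and in no others. Elsewhere they were among the most abundant: the 9 NMF2 libraries above 0 held 1772 to 22433 FPKM of ENSCAFG00000022728 and the 35 NMF1 libraries above 0 held 3160 to 39946 FPKM. A value of exactly 0 in a file of FPKM can be a failed estimate. In the libraries above 0, ENSCAFG00000022728 had a median of 9703 FPKM in NMF2 and 14947 FPKM in NMF1, and its log2 difference was -1.04 (SE 0.350), still called. For ENSCAFG00000022729 the libraries above 0 had a median of 18998 FPKM in NMF2 and 12199 FPKM in NMF1, the reverse of the called direction, and the log2 difference was 0.59 (SE 0.177). A total of 13 of 600 identifiers with a median of at least 100 FPKM were listed at 0 in at least 1 member, and without these 13 identifiers 1291 genes were called.

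Since the size of these differences, and for ENSCAFG00000022729 the direction, turns on libraries at 0, the first 2 lower genes with no member at 0 are given, chosen after their values were seen. ENSCAFG00000018058 had 0.793 to 42.4 FPKM in NMF2, with a median of 7.32, and 1.87 to 148.6 FPKM in NMF1, with a median of 34.9. It was below the NMF1 median in 16 of 17 NMF2 tumors. The log2 difference was -2.10 (SE 0.359) on deposited values and -1.79 (SE 0.340) after quantile normalization. Solid and tubulopapillary carcinomas had log2 differences of -2.44 (SE 0.524) and -2.02 (SE 0.434). In normal tissue the medians were 18.6 FPKM in NMF2 dogs and 14.4 FPKM in NMF1 dogs, with a log2 difference of -0.14 (SE 0.673, limma adjusted p = 1.00).

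ENSCAFG00000000958 had 0.351 to 188.2 FPKM in NMF2, with a median of 17.9, and 4.30 to 754.3 FPKM in NMF1, with a median of 59.9. It too was below the NMF1 median in 16 of 17 NMF2 tumors, with a log2 difference of -2.10 (SE 0.435), and -1.90 (SE 0.403) after quantile normalization. Its medians in normal tissue were 49.4 FPKM in NMF2 dogs and 175.4 FPKM in NMF1 dogs, with a log2 difference of -1.37 (SE 0.739, limma adjusted p = 1.00). With the library median as covariate the log2 difference in tumors was -0.63 (SE 0.488) for ENSCAFG00000000958 and -1.24 (SE 0.440) for ENSCAFG00000018058, and neither was called. For tumor minus own normal tissue, the clusters differed by 0.18 (SE 1.22) for ENSCAFG00000000958, the reverse direction. For ENSCAFG00000018058 that difference was -0.42 (SE 0.992), and neither was called.

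**Figure D4:**
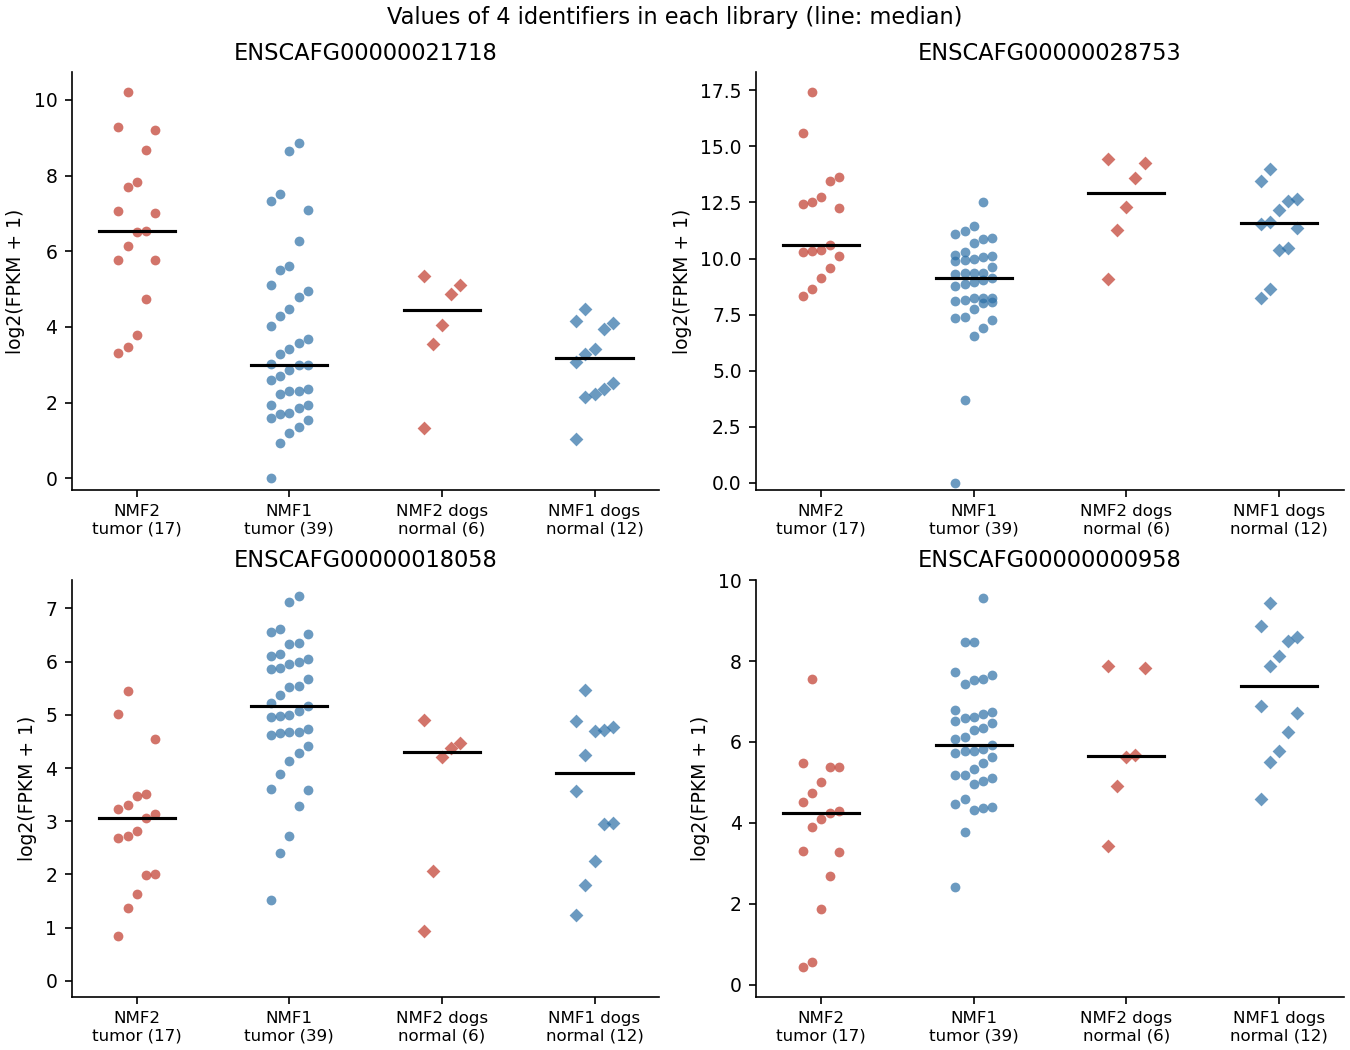
log2(FPKM + 1) of 4 identifiers in each library (points), for the 17 NMF2 and 39 NMF1 tumors and the normal tissue of 6 NMF2 and 12 NMF1 dogs, with the median as a line. ENSCAFG00000021718 and ENSCAFG00000028753 are higher and ENSCAFG00000018058 and ENSCAFG00000000958 lower in NMF2 tumors, the tumor groups overlap in each panel, and the normal tissues of the NMF2 and NMF1 dogs overlap as well.

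Expression was also compared in adjacent normal tissue, which did not assign a tumor to its cluster. Between the 6 NMF2 and 12 NMF1 dogs, limma called 0 of 14567 genes (0%), with 391 at an unadjusted p under 0.05, and after quantile normalization 0 genes, with 486 at that p. Without CMT-105 the counts were again 0 of 14612 genes on both scales, with 796 and 584 at that p. If no gene differed, a share of 0.05 of the genes would fall under that p on average. With 6 and 12 dogs, 0 calls do not show that the normal tissues were alike. The 1233 genes lower in NMF2 tumors had a median log2 difference of -0.03 in normal tissue, beside -0.02 for all genes, and 57.3% of them had the direction of the tumors, beside 54.0% of all genes. The 66 higher genes had a median log2 difference of 0.33 in normal tissue, and 57 of the 65 that were tested there had the direction of the tumors, 87.7% beside 46.0% of all genes. After quantile normalization these shares were 74.7% for the higher and 46.7% for the lower genes, beside 51.5% and 48.5% of all genes. The values for all genes on the deposited scale depended on CMT-105. Without it, 36.3% of all genes were lower in NMF2 dogs, beside 54.0% with it, and their median log2 difference was 0.09. The shares of the called genes were not computed without CMT-105. Genes of the same dogs are not independent replicates, so the shares are given without a test. When each tumor was set against the own normal tissue of the dog, in 6 NMF2 and 12 NMF1 dogs, 44 of 14656 genes were called on deposited values. After quantile normalization 4 genes were called (0.0273%). Among the 44 were 5 of the 1233 lower and 0 of the 66 higher genes, in the direction of the tumors. The tumors of these dogs alone were not fitted without the subtraction. The smaller number of dogs and the subtraction therefore cannot be told apart.

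None of the 9 clinical features tested differed significantly between the clusters. Lymphatic vessel invasion was present in 6 of 17 NMF2 dogs (35.3%) and 7 of 39 NMF1 dogs (17.9%; two-sided Fisher's exact test, p = 0.182, adjusted p = 0.821). Grade 3 was given to 35.3% and 30.8% of tumors (Fisher's exact p = 0.763, adjusted p = 0.952). Estrogen receptor (ER) staining was positive in 14 of 17 and 30 of 39 tumors (Fisher's exact p = 0.738, adjusted p = 0.952), with mean Allred scores of 5.82 ± 2.30 (SD) and 5.28 ± 2.44 (SD; permutation p = 0.480, adjusted p = 0.952). The highest HER2 score, 3, was given to 4 of 17 and 14 of 39 tumors (Fisher's exact p = 0.535, adjusted p = 0.952). Neuter status, age and the share of solid carcinomas had adjusted p values of 0.952, 0.952 and 1.00 by Fisher's exact and permutation tests. With 17 NMF2 dogs, such misses do not show that the clusters were alike.

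Survival was compared with the follow-up of the sample labels. By these, 6 of 17 NMF2 dogs and 7 of 39 NMF1 dogs had died, and 2 and 6 were lost to follow-up. The 6 deaths in NMF2 fell between day 1 and day 119, 3 of them within 30 days of surgery. The 7 deaths in NMF1 fell between day 70 and day 457, with 0 in the first 30 days. By the clinical table, which dates or records some deaths differently, 7 NMF2 deaths fell between day 1 and day 543, 2 of them within 30 days. The Kaplan-Meier estimate at 1 year was 64.7% (95% confidence interval 37.7 to 82.3) in NMF2 and 83.7% (67.2 to 92.3) in NMF1. The hazard ratio was 2.61 (95% confidence interval 0.873 to 7.80), and the two-sided log-rank test with permuted cluster labels gave p = 0.0823.

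The survival difference passed the threshold in 2 of 3 other settings. These settings share dogs with the main comparison, and their p values were not adjusted for the number of settings. Without the 4 tumors labelled adenoma the hazard ratio was 2.64 (0.881 to 7.89; permutation p = 0.0786). With the follow-up of the clinical table, which covers 15 NMF2 and 34 NMF1 dogs, the hazard ratio was 2.74 (1.01 to 7.44; permutation p = 0.0417). By that follow-up 7 NMF2 and 9 NMF1 dogs had died. Its Kaplan-Meier estimates at 1 year lay closer together, at 57.8% (25.4 to 80.3) in NMF2 and 64.2% (40.7 to 80.4) in NMF1. Among the 37 dogs operated on in 2017, with 4 deaths of 8 in NMF2 and 5 of 29 in NMF1, the hazard ratio was 4.40 (1.17 to 16.6; permutation p = 0.0122). Of these dogs, 4 of 8 in NMF2 and 6 of 29 in NMF1 had lymphatic vessel invasion. The NMF2 dogs that died, CMT-360, CMT-439, CMT-471 and CMT-644, all had it. Of the NMF1 dogs that died, CMT-193, CMT-262 and CMT-581 had it, and CMT-197 and CMT-233 did not. Survival was not adjusted for invasion, and its part was not tested.

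**Figure D5:**
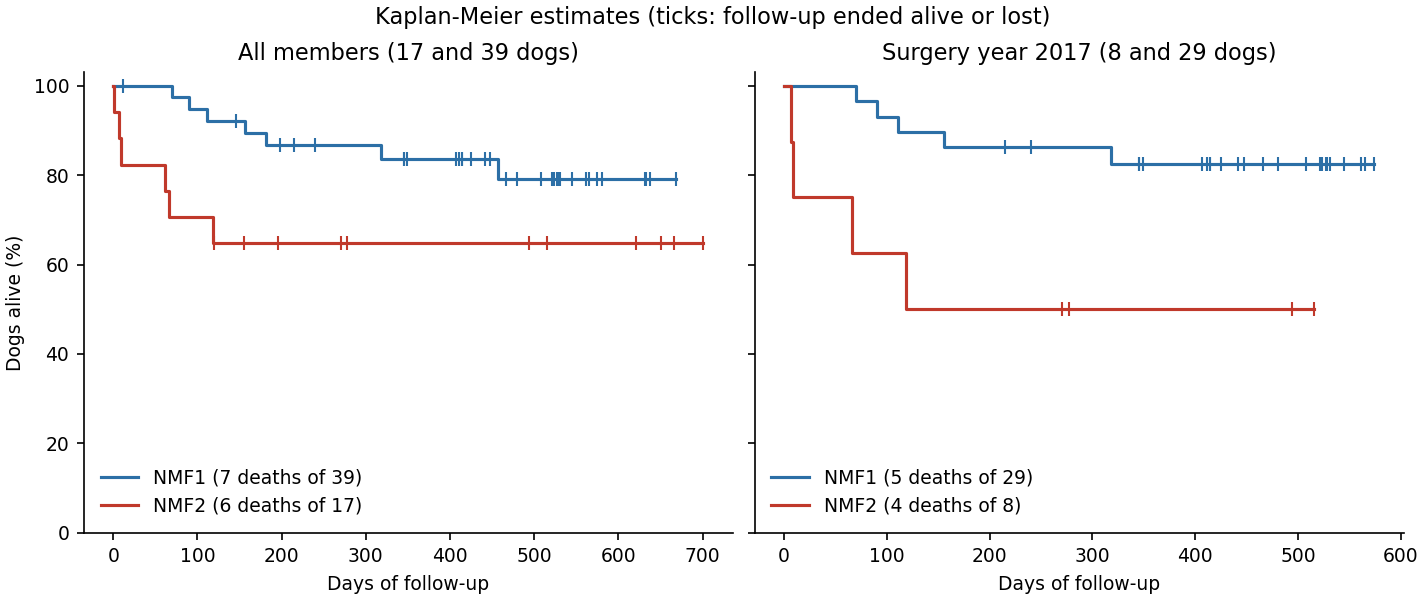
Kaplan-Meier estimates of the percentage of dogs alive (y axis) by days of follow-up in the sample labels (x axis), for all members (left) and those operated on in 2017 (right), with ticks where follow-up ended without a death. The NMF2 curve falls to 64.7% by day 119 and then stays level, and the NMF1 curve has its first death on day 70.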

How the data were processed

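Reads were mapped by the authors to CanFam3.1 with TopHat2 2.0.9 and Bowtie2 after FastQC 0.10.1, and the deposited FPKM values were calculated by the authors with Cufflinks 2.1.1 from stranded libraries, without further scaling between libraries. Cluster, histology and grade came from the study's clinical table, and mapped reads from its sequencing table. The members and lists were chosen with earlier results of these data known. Gene names were not used here: 0 of 24580 identifiers matched the gene table at hand, so lists of markers and pathways could not be applied. No strain, batch or date of sequencing is given in the sources used here.

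Genes that averaged 0.5 FPKM or more over the libraries compared were fitted on log2(FPKM + 1) with limma 3.58.1 in R 4.3.3, with an intensity trend, two-sided, with Benjamini-Hochberg adjustment; the fit was tested on simulated data. Named genes were, per direction, the 2 that differed most on deposited values, out of those called on both scales and reaching 5 FPKM on average in the higher cluster. Permutation tests used 100000 resamples, or all for normal tissue, in scipy 1.17.1. Survival was fitted with lifelines 0.30.3. Replicates were different dogs. The reads behind a value are unknown, so no counting interval is given. Alternatives covered the pseudocount, filter, scaling, members and covariates.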

Additional observations from a re-analysis of the deposited data

Results flagged for a closer look

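In groups of 4 to 10 samples, a sample was marked when its gap to the nearest other sample exceeded Dixon's 95% critical value. This was examined for 44 combinations of group and measure, of which 5 were marked, and chance marks about 1 in 20. Among the normal tissues of NMF2 dogs, CMT-105 had a median of 3.43 FPKM, beside a next lowest of 6.90, and its 100 highest genes held 71.2% of its FPKM, beside a next highest of 54.6%. In the same group CMT-013 was listed at 0 for ENSCAFG00000022728 and at 0 for ENSCAFG00000022729. Among the 8 NMF2 tumors removed in 2017, the 100 highest genes of CMT-644 held 69.7% of its FPKM, beside a next highest of 58.2%.

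The difference between NMF2 and NMF1 itself differed between solid and tubulopapillary carcinomas for 2 identifiers on deposited values, both named after their values were seen. The clusters were drawn on these values, so this is a description. ENSCAFG00000025775 had an interaction term of 4.43 on the log2 scale (SE 0.849). It had 16.5 to 31.3 FPKM in the 5 solid NMF2 tumors, was listed at 0 in all 11 solid NMF1 tumors, and was listed at 0 in 10 of 12 and 22 of 26 tubulopapillary tumors. ENSCAFG00000032154 had an interaction term of 1.36 (SE 0.269), with medians of 5.43 and 1.34 FPKM in solid NMF2 and NMF1 tumors and of 0.671 and 0.753 FPKM in tubulopapillary ones.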

How the results depend on the processing

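The number of genes called on deposited values (1299) and the percentage of the genes tested that were called after quantile normalization (3.72%) are given in this order. They were 2712 and 9.26% with a pseudocount of 0.1, 747 and 2.38% in solid carcinomas, 1977 and 7.41% in the non-basal class, 603 and 1.71% in 2017, 1 and 0.0704% in 2016, 0 and 0% in 2018, 709 and 1.91% with surgery year and 841 and 2.37% with mapping rate as covariates, 18 and 0.0417% with the library median as covariate, 44 and 0.0273% against the own normal tissue (fitted without the trend), and 576 and 1.64% without CMT-686 and CMT-774. Quantile normalization itself took 1299 to 534. The filter on low values, the tumors labelled adenoma, the tubulopapillary type alone, grade, the trend and median-of-ratios scaling kept the count within 1.5 times. Leaving out 1 NMF2 tumor at a time gave 892 (without CMT-686) to 1498, and 2.62% (without CMT-686) to 4.66%; leaving out 1 NMF1 tumor gave 1259 to 1385, and 3.49% to 4.19%. In other tumors the count of 699 became 279 after quantile normalization, 1686 with the smaller pseudocount and 14 with the library median. The 2 interaction genes became 4 after quantile normalization. Normal tissue stayed at 0 calls in every fit run. The hazard ratio of 2.61 passed the threshold with the clinical table's follow-up (2.74) and in 2017 (4.40). Within 2017 the difference in grade 3 was -0.431 percentage points, beside 4.52. The log2 difference of ENSCAFG00000022729, -4.66, was 0.59 when libraries at 0 were left out. The cause of these changes was not tested. The fits without CMT-686 and CMT-774 together, without single NMF1 tumors, without CMT-105 normal tissue, without values at 0, within 2016 or 2018, and with the library median after quantile normalization or in other tumors were chosen after seeing the data. No paired analysis was possible because NMF2 and NMF1 tumors come from different dogs. Unknown reads per gene limit what low values show.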
